A study of Rattus norvegicus with 6 samples.

Results

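The 3 albumin-rich libraries of a set of 6 were compared with the 3 albumin-poor libraries. All 6 hold polyadenylated RNA of primary liver sinusoidal endothelial cells from Han Wistar rats. Libraries were chosen by a value measured in them: albumin mRNA (Alb, the main plasma protein of hepatocytes) above 1000 CPM (counts of the gene per 1000000 counts of the library) made a library rich, and a value below it made it poor. The rich libraries were physiological replicates 2 and 3 and pathological replicate 3. The poor ones were physiological replicate 1 and pathological replicates 1 and 2. Nearest to the limit were physiological 3, at 12795 CPM on the rich side, and pathological 2, at 301 CPM on the poor side. Physiological means 1 mmHg of pressure and pathological 12 mmHg, with 3 libraries each, so the division crosses pressure: 2 physiological and 1 pathological libraries were rich. In both groups the cells shared a perfused device (Exoliver) with primary hepatocytes, stellate cells and macrophages, held for 48 h with a shear stress of 1.15 dyn/cm2. The sources used here give neither age nor sex of the rats, and they do not say whether each library had its own animal or culture. Since the division was selected on levels in the same libraries, every difference between the classes is a description, with no test. Values are listed in a fixed order: physiological 1, pathological 1 and pathological 2 for the poor class, then physiological 2, physiological 3 and pathological 3 for the rich class. They are marked (poor) and (rich) below.

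Sinusoidal endothelial cells line the capillaries of the liver, carry open pores (fenestrae), and take up waste molecules through scavenger receptors such as stabilins. Behind them lie stellate cells, which store vitamin A, and hepatocytes, which make plasma proteins. Kupffer cells, the resident macrophages, sit on the endothelial surface. In culture these endothelial cells are known to lose fenestrae and their scavenger receptor genes, a process called dedifferentiation or capillarization.

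The classes also differed in depth, sample number and gene detection. Totals were 24025406, 23754767 and 23649036 counts in the poor and 17117840, 8925149 and 11426299 counts in the rich libraries. The submitters' sample numbers were 2, 3 and 9 for the poor and 11, 22 and 23 for the rich libraries; the sources used here do not say what the numbers stand for. Genes with at least 1 count numbered 17189, 16769 and 13729 in the poor and 12833, 10649 and 10234 in the rich libraries. At a common depth, that of the smallest library, the numbers were 16351, 16133 and 13310 against 12522, 10649 and 9996, so the order held at equal depth. Of 3939 genes at 30 CPM or more in all 3 poor libraries, 32, 358 and 534 had 3 counts or fewer in the rich libraries. Of 3115 genes at that level in all 3 rich libraries, 44, 27 and 72 had 3 counts or fewer in the poor libraries. Physiological 2 therefore stood apart from physiological 3 and pathological 3, in which genes of the poor libraries were at 3 counts or fewer most often. The 10 most abundant genes took 5.3%, 6.82% and 9.8% of the counts in the poor and 10.5%, 22.7% and 10.9% in the rich libraries. The part of depth, detection and sample number in the differences below was not tested. Across the 12742 genes tested, which are not independent and share each library's depth, Pearson's r of log2 CPM lay between 0.864 and 0.97 for pairs of poor libraries. It lay between 0.687 and 0.731 for pairs of rich libraries and between 0.425 and 0.612 for pairs across the division.

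**Figure D1:**
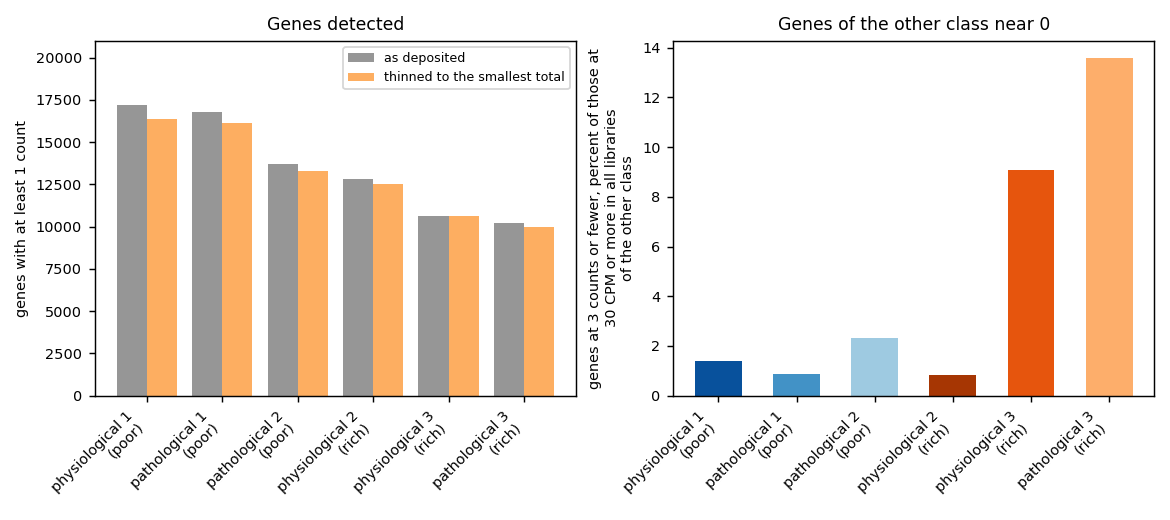
Left, genes with at least 1 count in each library (vertical axis, number of genes), as deposited and thinned to the smallest total. Right, genes at 3 counts or fewer as a percentage of those at 30 CPM or more in all 3 libraries of the other class; physiological 3 and pathological 3 reach 9.09% and 13.6%.

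A gene was called higher in the rich libraries when each of them lay above every poor library and the mean difference was at least 1 on the scale of log2(CPM + 0.5), and called lower in the mirror case. The pseudocount of 0.5 compresses differences of genes near 0. Of 12742 genes, 2095 were called higher (16.4%, Alb included) and 3623 lower (28.4%). These shares are the background for the lists below, and as the division was selected on expression nothing is read from them. The median difference over all genes was -0.69, so a list median near that value is at the level of all genes. Scaled on the geometric mean of the pan-endothelial list instead of TMM, the median of all genes was -2.13, with 784 genes higher and 5420 lower. Lower calls then made up 87.4% of all calls, against 63.4% in the TMM scaling. Of 60 lists outside hepatocyte genes, 16 had summed levels higher in every rich than in every poor library, 23 had them lower, and in 21 the classes overlapped. Hepatocyte and stellate cell sums were higher in the rich libraries throughout, and their part in the differences described below was not tested.

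**Figure D2:**
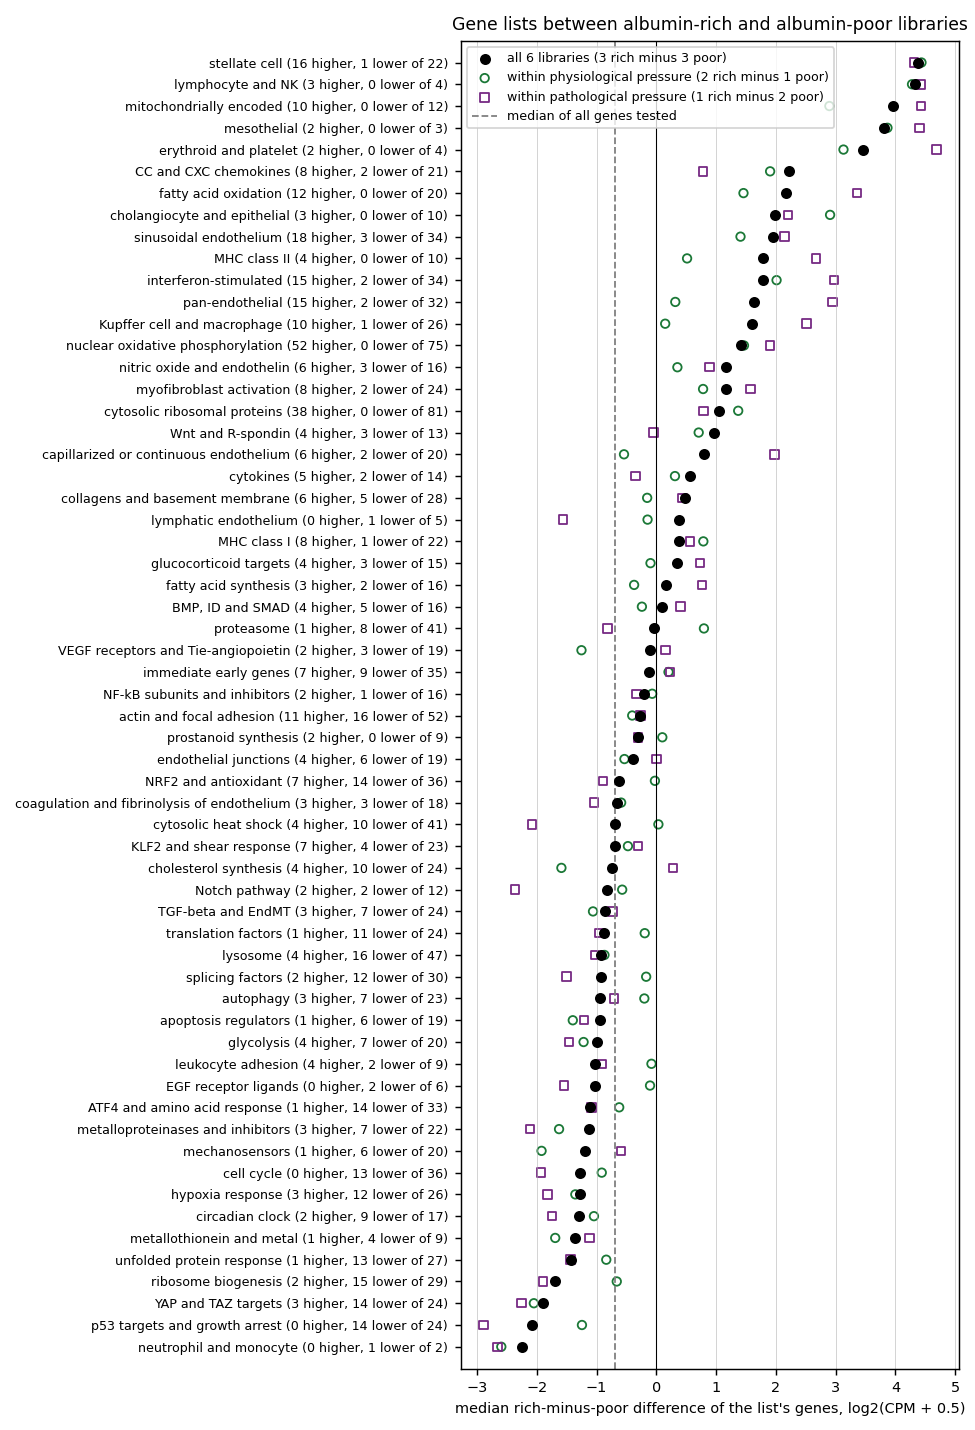
Median difference, rich minus poor, of each list's genes on the scale of log2(CPM + 0.5) (horizontal axis), with the counts called beside each list's name. Black points use all 6 libraries, open circles and squares the libraries of 1 pressure, and the dashed line marks the median of all genes at -0.69; the stellate list stands at 4.37 and the p53 list at -2.09.

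Transcripts of vitamin A storing stellate cells were higher in the rich libraries, and their list had the largest median of the 60 lists in this scaling. Of 22 stellate genes tested, 16 were called higher and 1 lower, with a median difference of 4.37. Lrat, the enzyme that makes retinyl esters for storage, measured 1.11, 2.24 and 8.23 CPM (poor) and 602, 657 and 917 CPM (rich). The rich libraries lay far above the poor ones, and the difference was 7.72. The intermediate filament genes Des and Gfap, both used to recognise these cells, differed by 5.81 and 7.02, and the transcription factor gene Hand2 by 3.56. Counts in the poor libraries were 8, 0 and 2 for Gfap and 7, 9 and 18 for Hand2. Gfap thus passed the low-count filter through the rich libraries alone, and Hand2 could not have passed it without them. The calls of Gfap and Hand2 therefore depend on the filter. Per 1000 counts of hepatocyte plasma protein genes, which leave out Alb, Lrat had 5.10, 6.46 and 11.7 counts in the poor and 16.5, 18.3 and 15.7 counts in the rich libraries. The ratio differed far less between the classes than the level. In their levels, other genes used as markers of stellate cells did not follow. The platelet-derived growth factor receptor gene Pdgfrb measured 4.36, 0.499 and 0.899 CPM (poor) and 18.02, 60.9 and 0 CPM (rich), so that pathological 3 was at 0. Decorin (Dcn) was between 0.142 and 9.27 CPM in all libraries, and the pericyte gene Rgs5 had counts in physiological 2 alone. Reln, which is also expressed by lymphatic and sinusoidal endothelium, was lower in every rich library, at 516, 424 and 434 CPM (poor) and 78.5, 25.7 and 0.942 CPM (rich). In bulk RNA, fewer cells of a type and less RNA per cell cannot be told apart.

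Matrix and contractile genes of the myofibroblast list were divided: 8 of 24 were called higher and 2 lower, which were Thbs1 and Lox. The list's median was 1.16, and -0.50 under pan-endothelial scaling. Myl9, a myosin light chain of smooth muscle, measured 1.83, 3.28 and 6.29 CPM (poor) and 359.6, 466 and 559.5 CPM (rich). The fibrillar collagen Col3a1 measured 4.85, 2.67 and 6.62 CPM (poor) and 313, 223 and 226 CPM (rich). Both were low in all 3 poor libraries. Thbs1 (thrombospondin) ran the other way, at 134, 63.6 and 15.3 CPM (poor) and 13.6, 0.567 and 0.282 CPM (rich). Smooth muscle actin (Acta2), the usual marker of activated stellate cells, overlapped between the classes at 2.92, 1.18 and 0.615 CPM (poor) and 12.9, 23.4 and 0 CPM (rich).

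Hepatocyte genes other than Alb show how far the division reaches. All 38 plasma protein genes tested were called higher, with a median difference of 6.77. The rule used a gene of this program, so these values are a description of the classes. The hepatocyte markers Ttr, Apoa1, Serpina1, Fgb and Cps1 were above 0 in all 6 libraries. Their sum ran from 24.9 to 99.03 CPM in the poor and from 6187 to 12074 CPM in the rich libraries.

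**Figure D3:**
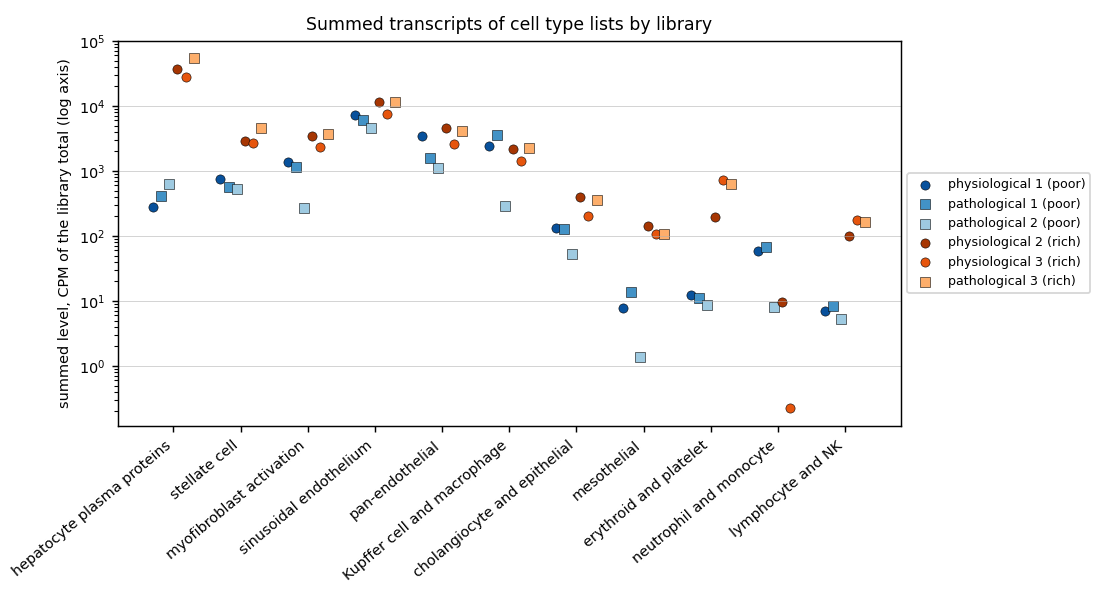
Summed level of the genes of 11 cell type lists in each library, in CPM of the library total on a log axis (vertical); blue symbols are poor and orange ones rich libraries, circles physiological and squares pathological. The neutrophil and monocyte list is at 0 in pathological 3 and has no point there. Stellate sums run from 2732 to 4513 CPM in the rich libraries against 528 to 745 CPM in the poor ones, while macrophage sums overlap.

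Many sinusoidal endothelial genes were higher in the rich libraries, and several general endothelial genes were not. Of 34 sinusoidal genes, 18 were called higher and 3 lower (Bmp6, Kit and Lgmn). The list's median was 1.95, and 0.56 under pan-endothelial scaling. The hyaluronan receptor Lyve1 measured 247, 41.1 and 75.8 CPM (poor) and 1687, 1610.4 and 2002 CPM (rich). The scavenger receptor Stab2 measured 8.06, 2.78 and 15.3 CPM (poor) and 207, 172 and 203 CPM (rich). Every rich library was above every poor library for both, with differences of 4.25 and 4.67. The receptor Gpr182 measured 27.4, 5.88 and 10.8 CPM (poor) and 296, 381 and 534 CPM (rich). Oit3, a gene typical of these cells, measured 7.01, 2.03 and 5.91 CPM (poor) and 162, 189 and 146 CPM (rich). The lectin gene Clec4g differed by 5.58, and Fcgr2b, the receptor that clears immune complexes, by 2.72. Physiological 1 was the highest poor library for Lyve1 and Fcgr2b. The largest differences of the list were those of Dnase1l3 and Ccl24. The nuclease Dnase1l3 measured 12.5, 14.9 and 63.5 CPM (poor) and 2278, 1626 and 2593 CPM (rich). The eotaxin gene Ccl24, which macrophages also express, measured 1.05, 1.89 and 6.95 CPM (poor) and 264, 171 and 331 CPM (rich). Stab1 overlapped, at 27.8, 7.16 and 11.3 CPM (poor) and 37.9, 18.3 and 40.6 CPM (rich). Bmp6, the endothelial signal that sets hepcidin in hepatocytes, was lower in every rich library, at 78.6, 51.4 and 37.2 CPM (poor) and 19.5, 26.7 and 1.32 CPM (rich). The receptor Kit was lower as well, at 118, 34.7 and 32.6 CPM (poor) and 8.81, 13.3 and 21.8 CPM (rich).

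The pan-endothelial list had 15 genes called higher and 2 lower (Cd93 and She) of 32. VE-cadherin (Cdh5), the adhesion protein of all endothelial junctions, measured 319, 198 and 220.1 CPM (poor) and 226, 214 and 183 CPM (rich). These values overlap, and the difference was -0.22. The receptors Tie1, Flt1 and Tek overlapped between the classes too, with differences of 0.23, 0.54 and -0.69. Kdr, the main receptor for VEGF, was in contrast higher in each rich library, at 43.6, 4.17 and 13.6 CPM (poor) and 499, 353 and 484 CPM (rich). Emcn (endomucin) measured 7.08, 2.24 and 9.51 CPM (poor) and 265, 256 and 226 CPM (rich). The transcription factor gene Sox18 measured 5.90, 0.356 and 0 CPM (poor) and 70.3, 71.8 and 169 CPM (rich). The secreted factor Egfl7 differed by 3.17. Cd93, a lectin of activated endothelium, was lower in every rich library, at 437, 158 and 66.4 CPM (poor) and 26.6, 6.95 and 46.8 CPM (rich). Set against Cdh5 of the same library, Kdr had 0.137, 0.0210 and 0.0619 counts per Cdh5 count in the poor and 2.21, 1.65 and 2.65 in the rich libraries. Stab2 had 0.0253, 0.0140 and 0.0694 counts per Cdh5 count in the poor and 0.915, 0.804 and 1.11 in the rich libraries. Within the endothelial genes the classes therefore differed in proportion, whichever total the counts are scaled to. The median of the whole list was 1.64, but 0.32 within physiological pressure and 2.95 within pathological pressure. The list's median under scaling on itself was -0.047. Of 20 genes of the capillarized or continuous endothelium list, 6 were called higher (30%) and 2 lower (10%), against 16.4% and 28.4% of all genes. This list's median was 0.80, and -0.80 under pan-endothelial scaling. It was -0.54 within physiological and 1.97 within pathological pressure. The part of capillarization in the differences was not tested. The symbol Pecam1 did not match any row.

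**Figure D4:**
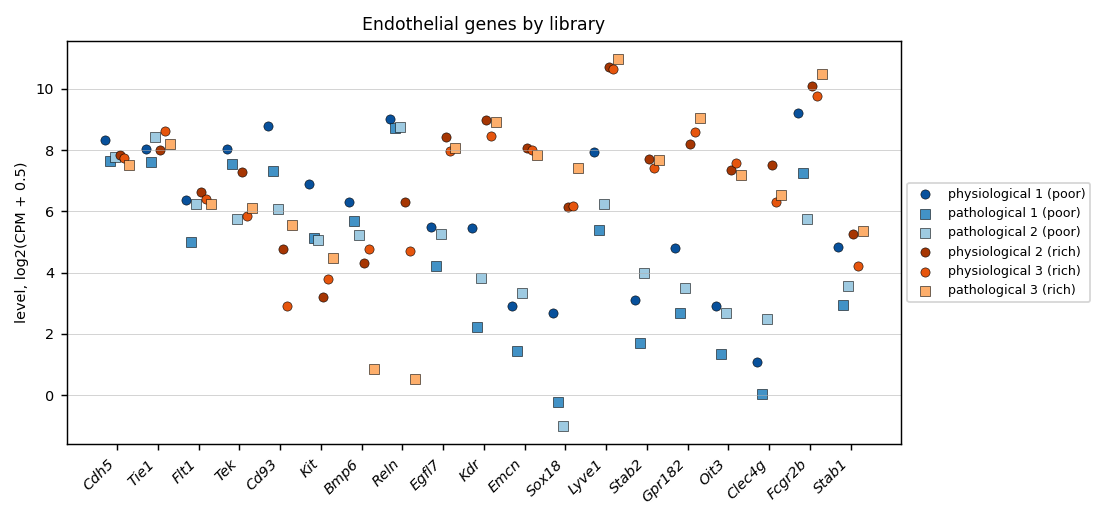
Level of 19 endothelial genes in each library on the scale of log2(CPM + 0.5) (vertical axis); blue symbols are poor and orange ones rich libraries, circles physiological and squares pathological. Classes overlap for Cdh5, Tie1, Flt1, Tek and Stab1, the rich libraries are lower for Cd93, Kit, Bmp6 and Reln, and they are higher for the other 10 genes.

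Macrophage genes followed the division in part, and pathological 2 stood apart. Of 26 genes tested, 10 were called higher and 1 lower. The Kupffer cell lectin Clec4f measured 7.86, 10.01 and 21.3 CPM (poor) and 275, 179 and 258 CPM (rich). The scavenger receptor Marco measured 3.60, 2.24 and 1.47 CPM (poor) and 103, 83.3 and 112 CPM (rich). The complement gene C1qb measured 39.3, 38.6 and 0.0473 CPM (poor) and 195, 191 and 213 CPM (rich), with pathological 2 nearly without it. The haemoglobin scavenger receptor Cd163 and the complement receptor Vsig4 overlapped between the classes, with pathological 2 at 0.0473 CPM for each. The leukocyte phosphatase Ptprc was lower in the rich libraries, at 28.4, 48.6 and 1.99 CPM (poor) and 1.15, 0.142 and 0 CPM (rich). Summed levels of the list overlapped, at 2422, 3615 and 287 CPM in the poor and 2219, 1443 and 2289.6 CPM in the rich libraries. The median was 1.60, and 0.14 under pan-endothelial scaling. It was 0.15 within physiological and 2.51 within pathological pressure.

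Lists of further cell types were higher in part, although several of their defining markers were at or near 0. The erythroid and platelet list summed to 12.5, 11.3 and 8.75 CPM in the poor and 195, 727 and 634 CPM in the rich libraries. The haemoglobin gene Hba-a2, which has 2 identifiers between which reads may be divided, measured 0.426, 0.214 and 1.70 CPM (poor) and 129, 637 and 507 CPM (rich). Alas2, the erythroid enzyme of haem synthesis, was at 0 counts in all 6 libraries. The cholangiocyte and epithelial list summed to 133, 129 and 53.2 CPM in the poor and 392, 206 and 353 CPM in the rich libraries. Keratins 8 and 18 (Krt8, Krt18), which hepatocytes and mesothelium also express, differed by 4.71 and 5.33. Msln (mesothelin) measured 1.64, 4.13 and 0 CPM (poor) and 24.5, 38.4 and 13.5 CPM (rich), while the mesothelial regulator Wt1 was at 0 in all 3 rich libraries. The lymphocyte markers Cd3e, Cd79a, Ms4a1 and Nkg7 summed to at most 0.379 CPM in any library. Of 21 matched genes of the lymphocyte and NK list, 4 passed the low-count filter (about 10 counts or more in at least 3 libraries). Of these 4, 3 were called higher (Ccl5, Lck and Xcl1), with a median of 4.33. The list's sums were 7.03, 8.504 and 5.33 CPM in the poor and 98.96, 175 and 166 CPM in the rich libraries. The chemokine gene Ccl5 measured 0.0328, 0 and 0.662 CPM (poor) and 28.4, 17.2 and 32.2 CPM (rich). Xcl1, a further chemokine gene, measured 0, 0 and 0 CPM (poor) and 8.75, 15.5 and 7.16 CPM (rich). Xcl1 passed the filter through the rich libraries alone, and Ccl5 could not have passed it without them. Both calls and the list's median therefore depend on the filter. The neutrophil genes S100a8, S100a9 and Csf3r summed to at most 2.37 CPM in any library. The cholangiocyte markers Krt19, Krt7, Epcam, Sox9 and Cftr overlapped, and 4 of the 5 were at 0 in pathological 3.

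Interferon-stimulated and MHC class II genes had higher summed levels in every rich library, while those of MHC class I presentation overlapped. Of 34 interferon-stimulated genes, 15 were called higher and 2 lower (Ddx58 and Herc6), with a median of 1.78 that was 0.23 under pan-endothelial scaling. Ifitm3, which blocks entry of viruses, measured 7.60, 4.70 and 14.8 CPM (poor) and 874, 729.8 and 744 CPM (rich). The T cell chemokine Cxcl9 measured 1.21, 1.71 and 1.51 CPM (poor) and 189, 103 and 321 CPM (rich). Every rich library was far above the poor ones. Differences were smaller for Ifit3 and Oas1a. Ifit3, a further antiviral gene, measured 24.05, 19.8 and 80.3 CPM (poor) and 218, 158 and 107 CPM (rich). Oas1a, which senses double-stranded RNA, measured 2.03, 0.641 and 2.22 CPM (poor) and 71.003, 32.5 and 67.99 CPM (rich). Of 22 genes of MHC class I presentation, 8 were called higher and 1 lower (the chaperone Canx). The class I median was 0.37, and -1.32 under pan-endothelial scaling. Its sums were 5706, 6015 and 7719 CPM in the poor and 11176, 7267 and 9909 CPM in the rich libraries, so that pathological 2 lay above physiological 3. B2m, the light chain of class I molecules, measured 933, 1294 and 1864 CPM (poor) and 6969, 5776 and 6951 CPM (rich). The immunoproteasome subunit Psmb9 measured 7.60, 5.38 and 2.13 CPM (poor) and 113, 215 and 161 CPM (rich). Class I heavy chain genes are near-identical copies and their levels are uncertain. Of 10 class II genes 4 were called higher, with a median of 1.79 that was 0.52 under pan-endothelial scaling. RT1-Da, a class II chain, measured 13.4, 11.8 and 1.66 CPM (poor) and 82.5, 97.2 and 159.5 CPM (rich). Cd74, the invariant chain, measured 75.7, 87.7 and 3.07 CPM (poor) and 291, 265 and 343 CPM (rich), with pathological 2 the lowest library for both. Among 21 chemokines, 8 were called higher. Cxcl12, which stellate and endothelial cells secrete, measured 3.67, 3.42 and 23.6 CPM (poor) and 587, 1029.7 and 1399 CPM (rich). The neutrophil chemokine Cxcl3 was lower, at 37.7, 27.3 and 7.57 CPM (poor) and 3.40, 2.70 and 0 CPM (rich). The NF-kB list held 2 genes called higher (Nfkb1 and Nfkb2, whose differences turned negative under pan-endothelial scaling) and 1 lower (Nfkbiz) of 16. These shares, 12.5% and 6.25%, were below the 16.4% and 28.4% of all genes. Hepatocytes, stellate cells and macrophages express many of these genes; the part of their RNA in the differences was not tested.

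Many promoters of interferon-stimulated genes carry the core of the interferon response element, searched here as GAAANNGAA on both strands in the 250 bases before each start (RefSeq, GRCr8). It was found in 8 of the 12 promoters matched for the 15 genes called higher and in 17 of the 27 matched for all 34 tested, against 7.99% of 27457 promoters. Among MHC class I genes called higher, 4 of 8 promoters held it, that of B2m among them. A match is a description of the letters. Promoters with a match of 4 genes described above are shown, since these genes were higher in the same libraries. They are written 5′ to 3′ in the gene's direction, with matches on either strand in capitals. They lie at chr1:241527076-241527325 (+ strand), chr12:41330216-41330465 (+ strand), chr1:205541759-205542008 (- strand) and chr3:129549080-129549329 (+ strand).
Ifit3: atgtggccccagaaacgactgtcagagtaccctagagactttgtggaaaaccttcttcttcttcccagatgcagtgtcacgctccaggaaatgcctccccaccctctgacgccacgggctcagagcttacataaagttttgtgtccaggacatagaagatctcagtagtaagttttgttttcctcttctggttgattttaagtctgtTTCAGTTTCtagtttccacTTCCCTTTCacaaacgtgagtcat
Oas1a: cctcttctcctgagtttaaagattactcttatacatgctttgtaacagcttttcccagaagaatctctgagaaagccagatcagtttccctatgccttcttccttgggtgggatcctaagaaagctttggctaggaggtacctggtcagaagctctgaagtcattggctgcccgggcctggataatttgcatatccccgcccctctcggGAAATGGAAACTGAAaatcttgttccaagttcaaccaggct
Ifitm3: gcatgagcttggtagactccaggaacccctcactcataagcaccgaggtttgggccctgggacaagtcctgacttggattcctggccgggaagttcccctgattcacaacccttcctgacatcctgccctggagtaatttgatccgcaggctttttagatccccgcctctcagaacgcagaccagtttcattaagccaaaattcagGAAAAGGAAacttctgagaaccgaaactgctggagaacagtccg
B2m: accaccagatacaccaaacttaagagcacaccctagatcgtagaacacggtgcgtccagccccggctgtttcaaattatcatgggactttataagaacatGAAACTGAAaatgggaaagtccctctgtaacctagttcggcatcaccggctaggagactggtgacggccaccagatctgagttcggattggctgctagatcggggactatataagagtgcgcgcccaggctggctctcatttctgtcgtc
The first match began 43, 41, 44 and 150 bases before the start in these genes. The core of the CCAAT-enhancer and ATF response element, searched as TGATGNAA in the same way, was in 3.27% of all promoters, in none of the 9 matched for the 14 amino acid response genes called lower, and in 4 of the 25 matched for all 33 tested (Trib3, Chac1, Nupr1 and Fgf21).

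Nuclear genes of respiration and genes of ribosomal proteins had positive median differences in TMM scaling, while both medians were negative when scaled on the pan-endothelial list. Of 75 nuclear genes of oxidative phosphorylation, 52 were called higher and 0 lower, with a median of 1.42 (1.47 within physiological and 1.90 within pathological pressure). Scaled on the pan-endothelial list this median turned to -0.25, so its direction depends on the scaling. The ATP synthase subunit Atp5e measured 33.02, 43.9 and 47.9 CPM (poor) and 257, 383 and 439.7 CPM (rich). Ndufs8, a subunit of complex I, measured 10.3, 9.79 and 6.76 CPM (poor) and 97.3, 23.1 and 142 CPM (rich). Mitochondrially encoded transcripts took 1.24%, 0.438% and 0.335% of the counts in the poor and 3.66%, 16.7% and 4.48% in the rich libraries, with 10 of 12 genes called higher. Physiological 3 held by far the most. Cytosolic ribosomal protein genes had 38 of 81 called higher and 0 lower, with a median of 1.04 that was -0.63 under pan-endothelial scaling. Rpl41 measured 507, 719 and 839.7 CPM (poor) and 2436, 3475 and 3503 CPM (rich). The factors that build ribosomes went the other way. Of 29 biogenesis genes, 15 were called lower (51.7%, against 28.4% of all genes) and 2 higher, with Gltscr2 and Nop10 as the higher ones. Utp20, which processes the small subunit, measured 102, 97.5 and 91.04 CPM (poor) and 6.68, 0.142 and 0.0942 CPM (rich). Nucleolin (Ncl) measured 1320.1, 1705 and 4574 CPM (poor) and 922, 1128 and 939.9 CPM (rich). Fatty acid oxidation genes were called higher in 12 of 20 (60%, against 16.4% of all genes). Their median was 2.17, and 0.51 under pan-endothelial scaling.

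Stress programs were among the groups with lower levels. Of 24 p53 targets and growth arrest genes, 14 were called lower (58.3%, against 28.4% of all genes) and 0 higher, with a median of -2.09. Gadd45a, an arrest gene induced by damage, measured 427, 594 and 1056 CPM (poor) and 125, 101 and 25.1 CPM (rich). Cdkn1a (p21) measured 509, 635 and 1154 CPM (poor) and 306, 383 and 197 CPM (rich). Mdm2, which marks p53 for degradation, measured 243, 345 and 714 CPM (poor) and 168, 138 and 88.7 CPM (rich). In these genes pathological 2 was the highest and pathological 3 the lowest library. The unfolded protein response had 13 of 27 genes called lower (48.1%) and 1 higher, with a median of -1.42. The endoplasmic reticulum chaperone Hspa5 (BiP) measured 2580.4, 3703 and 10366 CPM (poor) and 1054, 737 and 395 CPM (rich). The stress sensor Ern1 measured 219, 223 and 266 CPM (poor) and 68.4, 0.851 and 0.188 CPM (rich). Atf6, a further sensor, measured 370.5, 376 and 418 CPM (poor) and 73.4, 66.5 and 0.753 CPM (rich). All 3 were lower in each rich library, and pathological 3 was the lowest. Sec61b, a channel subunit, was the gene called higher. For Atf4, the transcription factor of the amino acid response, and its target Ddit3 the classes overlapped, at differences of -0.29 and 0.49. Its transporter genes were lower: Slc7a11, which imports cystine, measured 1192, 951 and 370.1 CPM (poor) and 70.2, 4.54 and 0.847 CPM (rich). Slc7a5, which carries large neutral amino acids, measured 248, 263 and 372 CPM (poor) and 71.5, 1.28 and 36.4 CPM (rich). In all, 14 of 33 genes of this list were called lower (42.4%) and 1 higher (Fgf21, a hormone of hepatocytes). The list's median was -1.12, against -0.69 for all genes. Within physiological pressure it was -0.62 against -0.58, and within pathological pressure -1.09 against -0.94. Within each pressure this list therefore lay near the level of all genes.

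**Figure D5:**
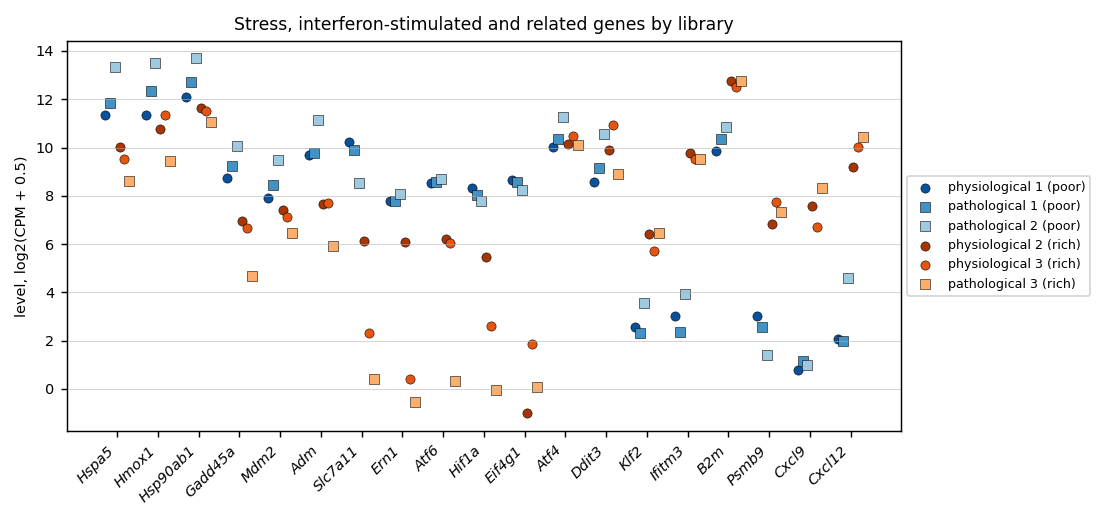
Level of 19 stress, interferon-stimulated and related genes in each library on the scale of log2(CPM + 0.5) (vertical axis); blue symbols are poor and orange ones rich libraries, circles physiological and squares pathological. Classes overlap for Atf4 and Ddit3, the rich libraries are lower for the 11 genes from Hspa5 to Eif4g1, and they are higher for the 6 genes from Klf2 to Cxcl12.

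Antioxidant genes were called in both directions. Of 36 NRF2 and antioxidant genes 7 were called higher (19.4%) and 14 lower (38.9%), against 16.4% and 28.4% of all genes. The list's median was -0.62, close to the -0.69 of all genes. Haem oxygenase (Hmox1) measured 2607, 5240.2 and 11738 CPM (poor) and 1762, 2589 and 704 CPM (rich). Gclm, which helps to make glutathione, measured 153, 238 and 525 CPM (poor) and 75.7, 75.2 and 93.98 CPM (rich). On the other side stood catalase (Cat), glutathione peroxidase (Gpx1) and the glutathione transferase Gstm1, in all of which hepatocytes are rich. Cat measured 122, 116 and 29.4 CPM (poor) and 589, 551 and 1442 CPM (rich). Gpx1 measured 29.3, 41.1 and 33.5 CPM (poor) and 632, 844 and 1406 CPM (rich). Gstm1 measured 24.1, 21.9 and 16.3 CPM (poor) and 351, 785 and 1570.0 CPM (rich). The cytosolic heat shock list had 10 genes called lower and 4 higher (Cryab, Fkbp4, Hspa1a and Hspb1) of 41. Its median was -0.69, the level of all genes. Mitochondrial chaperones such as Hspa9 were among the lower genes, so the list is not cytosolic throughout. Hsp90ab1 measured 4310.2, 6719 and 13207 CPM (poor) and 3158, 2881 and 2101 CPM (rich). The inducible chaperone genes Hspa1a and Hspa1b are near-identical copies whose reads the counting could split, and their calls point in opposite directions. Their sum was 1359.7, 3437 and 5218 CPM in the poor and 818, 640.5 and 396 CPM in the rich libraries.

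Among hypoxia genes, 12 of 26 were called lower (46.2%) and 3 higher (11.5%: Epas1, Bhlhe40 and Bnip3l). The shares of all genes were 28.4% and 16.4%. The list's median was -1.28. The vasodilator Adm (adrenomedullin) measured 816, 866 and 2234 CPM (poor) and 201, 205 and 60.5 CPM (rich). Vegfa, the endothelial growth factor, measured 96.8, 118 and 253 CPM (poor) and 25.6, 29.1 and 20.8 CPM (rich). The oxygen-regulated factor Hif1a measured 317, 259 and 223 CPM (poor) and 43.9, 5.53 and 0.471 CPM (rich). Epas1, the endothelial relative of Hif1a, was higher, at 208, 104 and 77.9 CPM (poor) and 838, 723 and 847 CPM (rich). Cell cycle genes were called lower in 13 of 36 (36.1%, against 28.4% of all genes) and higher in 0, with a median of -1.28. Cdt1, which licenses replication, measured 16.4, 21.5 and 32.2 CPM (poor) and 14.6, 7.66 and 0 CPM (rich). The replication helicase gene Mcm3 was at 0 in all rich libraries, against 22.7, 22.8 and 14.7 CPM in the poor ones. Lysosome genes were called lower in 16 of 47 (34%) and higher in 4 (Ctsc, Ctsh, Ctsk and Ppt1). Their median was -0.92 against -0.69 for all genes, so this list lay near the level of all genes. Circadian clock genes were called lower in 9 of 17 (52.9%) and higher in 2 (11.8%), Bhlhe40 among them, with a median of -1.29.

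Genes by which endothelium senses force did not differ in 1 direction. Of 20 mechanosensor genes 6 were called lower (30%, against 28.4% of all genes) and 1 higher (Kdr), with a median of -1.19. The stretch-gated channel Piezo1 measured 199, 192 and 264 CPM (poor) and 42.4, 36.7 and 31.2 CPM (rich). Trpm7, a channel with a kinase domain, measured 102, 108 and 81.8 CPM (poor) and 16.2, 0.284 and 0.0942 CPM (rich). Targets and cofactors of YAP and TAZ, which respond to stiffness and tension, were called lower in 14 of 24 (58.3%) and higher in 3. Their median was -1.90 (-2.05 within physiological and -2.25 within pathological pressure). The matricellular gene Cyr61 measured 82.1, 64.3 and 70.9 CPM (poor) and 27.99, 26.8 and 49.7 CPM (rich). Ctgf, a further target, overlapped at 100.1, 39.3 and 3.74 CPM (poor) and 6.74, 0 and 32.3 CPM (rich). The genes called higher were Axl, Dlc1 and Igfbp3. Igfbp3, a carrier of insulin-like growth factors, measured 4.62, 1.71 and 4.73 CPM (poor) and 162, 159 and 211 CPM (rich). The list of KLF2 targets and other flow-responsive genes held 7 called higher and 4 lower (Hmox1, Klf10, Mef2a and Sema7a) of 23. Its median was -0.69, the level of all genes. Klf2 itself, the transcription factor induced by laminar flow, measured 5.44, 4.49 and 11.3 CPM (poor) and 86.1, 51.8 and 86.7 CPM (rich). Its relative Klf4 overlapped, at 81.4, 127 and 251 CPM (poor) and 79.7, 42.7 and 122 CPM (rich). Endothelial nitric oxide synthase (Nos3) overlapped too, at 48.4, 7.30 and 4.78 CPM (poor) and 72.6, 23.97 and 70.4 CPM (rich). The largest difference of the list was that of Ass1, an arginine-making enzyme that is abundant in hepatocytes, at 6.78. The endothelin receptor Ednrb measured 50.5, 34.9 and 19.6 CPM (poor) and 2.13, 0.426 and 0 CPM (rich).

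The largest differences outside hepatocyte lists were still led by genes of hepatocyte type on the higher side, such as the fatty acid carrier Fabp1, at 8.58, and Thrsp, a lipogenic regulator, at 8.14. On the lower side the 10 included 5S_rRNA and Myh9l1, the largest at -9.03, beside genes such as Eif4g1, Lamc1 and Ube2o. Eif4g1, the scaffold of translation initiation, measured 408, 376 and 300.3 CPM (poor) and 0, 3.12 and 0.565 CPM (rich). Its counts were 0, 22 and 6 in the rich libraries. The laminin chain Lamc1 measured 560.0, 425 and 258 CPM (poor) and 24.7, 1.13 and 0.471 CPM (rich). The ubiquitin ligase Ube2o measured 185, 186 and 202 CPM (poor) and 5.41, 0.284 and 0.188 CPM (rich). Apc, a scaffold of beta-catenin breakdown that is outside the 10, measured 219, 184 and 108 CPM (poor) and 23.03, 0.851 and 0.188 CPM (rich). Physiological 2 lay between the classes for Lamc1, Ube2o and Apc, and physiological 3 and pathological 3 held few counts of them. Other genes of broad use did not differ so: Actb, the cytoplasmic actin, differed by -0.69, and the elongation factor Eef1a1 by 0.47. Gapdh, by contrast, was higher, at 9.89, 9.19 and 27.1 CPM (poor) and 185, 260.3 and 430.0 CPM (rich). Myh9, the nonmuscle myosin heavy chain, is listed beside the like-named Myh9l1, between which reads may be divided, and the calls of the 2 point in opposite directions. Their sum was 1058, 780.2 and 519 CPM in the poor and 139, 73.3 and 79.8 CPM in the rich libraries. Transcript length was not analysed here.

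Pressure, the labelled contrast, was tested with and without the division as a term. In the quasi-likelihood fit of edgeR, 0 of 12742 genes (0%) passed an adjusted p of 0.05 without the term and 0 (0%) with it. Before adjustment, 33 genes without and 78 with the term lay under 0.05, and the biological coefficient of variation was 1.39 and 1.12. Without the term, limma-voom called 0 genes (159 before adjustment) and DESeq2 called 1, Ccnj (178 before adjustment). With the term, limma-voom called 0 (330 before adjustment) and DESeq2 called 4 (1441 before adjustment). Those 4 were Esm1, Ccnj, Mt-nd4l (lower at pathological pressure) and A2m (higher). Esm1, an endothelial gene of sprouting vessels, had 4467, 209 and 389 counts in physiological replicates 1 to 3 and 273, 43 and 0 counts in the pathological ones. Ccnj, a cyclin gene, had 433, 70 and 351 and 0, 0 and 1 counts, and the protease inhibitor A2m 0, 0 and 0 and 35, 49 and 359 counts. The mitochondrially encoded Mt-nd4l had 3395, 899 and 1708 counts at physiological and 588, 192 and 0 counts at pathological pressure. The smallest unadjusted p of the edgeR fit with the term on the lower side also fell to Fabp4, the fatty acid carrier of capillary endothelium, Syne1, a nuclear envelope protein, and Ptprb, the phosphatase VE-PTP. Fabp4 measured 216, 359 and 494 CPM at physiological and 65.6, 27.1 and 163 CPM at pathological pressure, a log2 difference of -1.80 (edgeR adjusted p = 1). For Fabp4 every physiological library was above every pathological one. In each pressure the rich libraries were the higher ones. On the higher side stood Nat8b, LOC259245, AC109100.1, Apoc4 and A2m, each with an edgeR adjusted p of 1. With 3 libraries per pressure and this spread, a p that misses the threshold does not show that the pressures act alike.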

How the data were processed

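RNA of 6 libraries was read from 1 file each. The authors deposited expected counts per gene, per the file headers, which are estimated and not normalized. Per the submitters' processing notes, the tools included STAR, RSEM and limma, with no version. Build, annotation and strand use: not given in the sources used here. Because RSEM shares out reads among matching genes, levels of near-identical, overlapping and antisense genes are uncertain. Counts were rounded and scaled to CPM with TMM factors, and filterByExpr of edgeR 4.0.16 (R 4.3.3) kept 12742 of 32623 genes. Summed levels of lists and the albumin rule used unscaled totals. Tests of pressure used edgeR's quasi-likelihood fit, two-sided, with Benjamini-Hochberg adjustment. The fit was checked on simulated data with less spread than these libraries and no albumin division, so the check does not cover the spread seen here. The p-values rest on the spread of these samples alone, which may be technical. limma 3.58.1 and DESeq2 1.42.0 gave alternatives. Other alternatives were scalings, pseudocounts, filters, thresholds and leaving out each library; medians within each pressure were added after seeing the data.

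The members and the lists were chosen with earlier results of these data known. Of 1545 list symbols, 1456 matched 1 row, 12 matched several, 32 matched through synonyms in a RefSeq table (GRCr8, names only) and 45 matched none. Rps27a entered the ribosomal list under 2 identifiers. Promoters are from the RefSeq table of GRCr8. Named genes were, per list outside hepatocyte and P450 genes, up to 2 called members per direction with the largest difference at a mean of 10 CPM or more, a set of cell type markers, the 10 largest differences per direction at 30 CPM or more (hepatocyte and P450 lists left out on the higher side), and 5 genes per direction with the smallest p in the pressure fit with the term. Outside that rule, chosen after their values were seen, were Acta2, Actb, Apc, Atf4, Axl, B2m, Bnip3l, Cat, Cd74, Cdkn1a, Chac1, Ctgf, Ctsc, Cyr61, Ddit3, Ddx58, Eef1a1, Ets1, Fgf21, Fkbp4, Flt1, Gadd45a, Gclm, Gfap, Gpx1, Herc6, Hmox1, Hsp90ab1, Hspa5, Hspb1, Ifit3, Klf2, Klf4, Lck, Lgmn, LOC103692829, Lox, Mdm2, Mt-nd4l, Ncl, Nos3, Nupr1, Oas1a, Piezo1, Ppt1, Sema7a, She, Sod1, Tie1 and Trib3. Some named genes are not reported here.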

Additional observations from a re-analysis of the deposited data

Results flagged for a closer look

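In 9 lists the median level, in log2(CPM + 0.5), was higher in every rich than in every poor library at 1 pressure and lower at the other. The differences are those of a list's median level per library, not the medians of gene differences given above. Medians of gene differences were negative at both pressures for lymphatic endothelium (5 genes, -0.15 and -1.57, physiological first) and hypoxia response (-1.36 and -1.82). They were so too for NRF2 and antioxidant (-0.024 and -0.89) and EGF receptor ligands (-0.11 and -1.54). In the rest of the 9 lists they had opposite signs. Sums of the lymphatic endothelium, hypoxia response and cytosolic heat shock lists were lower in every rich than in every poor library. The opposite directions of median levels were not tested, and each rests on 1 library in 1 class of each pressure. The lymphatic endothelium list had a rich-minus-poor difference of 4.04 at physiological and -3.20 at pathological pressure. The cytokines list had a rich-minus-poor difference of 1.37 at physiological and -1.31 at pathological pressure. The cytosolic heat shock list had a rich-minus-poor difference of 0.81 at physiological and -0.54 at pathological pressure. The NRF2 and antioxidant list had a rich-minus-poor difference of 0.26 at physiological and -0.62 at pathological pressure. The proteasome list had a rich-minus-poor difference of 0.65 at physiological and -0.88 at pathological pressure. The hypoxia response list had a rich-minus-poor difference of 0.13 at physiological and -0.80 at pathological pressure. The Wnt and R-spondin list had a rich-minus-poor difference of 1.57 at physiological and -1.88 at pathological pressure. For the VEGF receptors and Tie-angiopoietin list the difference was -0.61 at physiological and 0.55 at pathological pressure. For the EGF receptor ligands list the difference was -0.42 at physiological and 0.25 at pathological pressure.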

How the results depend on the processing

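Counts of genes higher and lower stayed within 1.5 times their values under DESeq2 size factors, plain totals, totals without hepatocyte, P450 and mitochondrially encoded genes, both pseudocounts, no filter, both other thresholds and each library left out (2135 to 2712 higher without a library, 3769 to 5331 lower). Scaled on the pan-endothelial list, 784 genes were higher, and 12 of 60 lists had a positive median against 26. With genes above 10 CPM in at least 3 libraries, 2295 of 8326 were lower. The scaling on the pan-endothelial list turned 14 medians from positive to negative. Those above 1 before it were the pan-endothelial list, which turned to -0.047, myofibroblast activation to -0.50, nitric oxide and endothelin to -0.040, nuclear oxidative phosphorylation to -0.25 and ribosomal proteins to -0.63. The other 9, between 0.092 and 0.97 before it, were BMP, ID and SMAD, MHC class I, Wnt and R-spondin, capillarized endothelium, collagens, cytokines, fatty acid synthesis, glucocorticoid targets and lymphatic endothelium, which turned to between -1.58 and -0.65. It also turned the differences of single genes, Nfkb2 to -0.38, Nfkb1 to -0.40, Psmb5 to -0.53, Gabarapl2 to -0.050, Sod1 to -0.095, Bad to -0.19, Gltscr2 to -0.52, Nop10 to -0.62, Rbm39 to -0.48 and Ets1 to -0.15. The median of the erythroid and platelet list was -0.65 with no filter and ran from -0.14 (without pathological 3) to 3.39 when a library was left out, with -0.11 without physiological 2. That of leukocyte adhesion was 1.81 with the 10 CPM filter and ran from -1.43 to 0.20 (without physiological 1) when a library was left out. The constructions differ in the genes tested or the libraries used; other causes were not tested.

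For pressure, DESeq2 called 1 gene without the term (Ccnj) and 4 with it, and edgeR with no filter called 1 with the term, LOC103692829, whose 3918 counts in pathological 3 stood against 16 in the other libraries together. Leaving out each library gave 0 calls in both fits, with 19 to 827 genes at an unadjusted p under 0.05 without the term and 70 to 1572 with it. No paired analysis was possible because the labels give no shared replicate numbers. The smallest library, of 8925149 counts, limits what can be said of genes at a few counts.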
